A study of Mus musculus with 4 samples.

Results

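The genes described here are 32 genes of the hypoxia response, chosen by gene symbol as the subunits of hypoxia-inducible factor (HIF), its regulators and its targets outside glycolysis. They are 32 of the 25170 gene symbols in the deposited tables, and 31 of them were kept by a filter that asks for 1 or more in any of the 4 libraries, as were 13142 of all genes. The rule reads symbols and no measured value. Polyadenylated RNA was sequenced from 4 cultures of mouse embryonic stem cells, with 1 library per group. The WT group is the unedited line labelled E14, and the SO group is the same genotype under an inhibitor treatment whose agent, dose and duration the labels do not spell out. The Ldha_KO and Ldhb_KO groups are knockouts of the genes for the A and B subunits of lactate dehydrogenase, the enzyme that converts pyruvate and lactate into each other. All cells were grown in medium with serum and LIF on gelatin in 5% CO2, and no label names a low-oxygen culture, how the knockouts were made or whether a knockout is a single clone.

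HIF is a transcription factor made of an oxygen-sensitive alpha subunit and a stable partner, Arnt. With oxygen, prolyl hydroxylases of the Egln family mark the alpha subunit, Vhl binds the marked protein and the protein is degraded, so that control acts largely on the protein and not on the alpha subunit's mRNA. Without oxygen the alpha subunit persists and activates genes for glycolysis, blood vessel growth, collagen modification, mitochondrial remodelling and pH control, and also Egln1 and Egln3, which limit the response. Pluripotent stem cells are known for high glycolysis, and part of that programme is shared with the hypoxia response.

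HIF binds a core of 5 letters, ACGTG or GCGTG, and this pattern was looked for in RefSeq promoters (GRCm38.p6, 250 bases before to 50 bases after a gene's start, both strands counted). Promoters were found for 22 of the 32 genes, 31 sequences in all, Ero1l under its current symbol Ero1a. Epas1, Plod2, Lox, Loxl2, Bnip3l, Ndufa4l2, Cox4i2, Kdm4b, Bhlhe40 and Ndrg1 had no entry. ACGTG stood in at least 1 promoter of 15 of the 22 genes (68.2%), against 29.6% of 10522 genes kept and 21.8% of all 27025 genes in the table. By sequence, 16 of 31 promoters held it (51.6%), against 25.6% of 13398 promoters of the genes kept. Either pattern stood in 19 of the 22 genes (86.4%), against 67.9% and 46.7%. A palindromic CACGTG was counted on both strands, and other factors bind it too, so a match describes letters and is not evidence of binding.

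The bases before the start are shown for the genes that held ACGTG and were 2-fold or more from WT in at least 2 of the comparisons below, and for Car9, a carbonic anhydrase gene often used as a readout of HIF. Capitals mark ACGTG, or CACGT where it lies on the other strand. Ddit4 lies at chr10:59951771-59952020 (minus strand) with a match beginning 187 bases before the start, P4ha1 at chr10:59323046-59323295 (plus strand) with one 16 bases before, P4ha2 at chr11:54100674-54100923 (plus strand) with one 78 bases before and another 11 bases into the transcript that is not shown, and Car9 at chr4:43506776-43507025 (plus strand) with one 18 bases before.
Ddit4: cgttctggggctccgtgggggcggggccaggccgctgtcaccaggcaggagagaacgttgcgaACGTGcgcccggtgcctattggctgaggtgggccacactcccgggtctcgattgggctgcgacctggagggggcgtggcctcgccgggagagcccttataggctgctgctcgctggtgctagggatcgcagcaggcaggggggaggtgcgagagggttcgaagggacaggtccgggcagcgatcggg
P4ha1: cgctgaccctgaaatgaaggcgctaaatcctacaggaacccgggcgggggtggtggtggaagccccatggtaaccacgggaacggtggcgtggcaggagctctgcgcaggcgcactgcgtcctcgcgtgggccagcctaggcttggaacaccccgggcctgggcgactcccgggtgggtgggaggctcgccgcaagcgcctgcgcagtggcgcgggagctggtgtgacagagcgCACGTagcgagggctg
P4ha2: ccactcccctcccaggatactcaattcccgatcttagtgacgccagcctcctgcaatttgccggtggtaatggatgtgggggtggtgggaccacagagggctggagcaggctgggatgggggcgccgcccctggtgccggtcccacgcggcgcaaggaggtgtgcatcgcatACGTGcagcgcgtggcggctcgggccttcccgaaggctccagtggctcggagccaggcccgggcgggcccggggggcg
Car9: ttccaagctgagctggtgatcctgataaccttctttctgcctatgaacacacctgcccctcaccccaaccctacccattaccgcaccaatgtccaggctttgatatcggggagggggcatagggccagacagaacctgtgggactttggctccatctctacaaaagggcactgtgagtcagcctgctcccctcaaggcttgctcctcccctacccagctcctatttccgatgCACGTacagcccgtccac

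These coordinates belong to the RefSeq table, and the expression values were made on build mm9. P4ha1 and P4ha2 were among the higher genes in SO, Ldha_KO and Ldhb_KO, and Ddit4 in SO and Ldhb_KO. Car9 was not 2-fold from WT in any library.

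Levels are FPKM, fragments scaled by transcript length and library depth, and the libraries summed to between 471595 and 526316. Differences between libraries were taken on log2(FPKM + 1) over the genes kept, and a call, higher or lower, needed a size of at least 1. That is 2-fold in FPKM + 1, so a ratio of FPKM just above 2 can miss it. Bhlhe40 in Ldha_KO stood at 2.07 times its WT level without a call. With 1 library per group there is no replicate spread, no test and no p-value, and each difference compares libraries, not conditions. The comparisons with WT share the 1 WT library. The targeted genes followed the labels: Ldha had levels of 1774 (WT), 1711 (SO), 154 (Ldha_KO) and 2237 (Ldhb_KO), and Ldhb was at 76.5, 139, 158 and 5.74. All 8 stem cell markers were at 1 or more in every library and summed to between 5691 and 6322. The sum hides differences of single markers in both directions. Sox2 was at 370.9 in WT and 204.4 in Ldha_KO, and Klf4 at 124.4 and 193.5. Tdgf1 was at 504.9 in Ldha_KO and 1056 in Ldhb_KO and was called higher in Ldhb_KO of these, at 1.06. Of 10 feeder or fibroblast markers, 2 or 3 reached 1, the sum lay between 42.1 and 52.5, most of it Thy1, which was at 36.9 to 47.4, and Dcn and Lum were listed at 0 in all 4 libraries. Of 8 endothelial markers 3 reached 1 in each library (sums 28.7 to 36.1), namely Egfl7, Tek and Esam. Most of the sum was Egfl7, at 17.3 to 23.9. Tek was at 5.37 (WT), 10.8 (SO), 8.96 (Ldha_KO) and 6.83 (Ldhb_KO), with a difference of 0.89 in SO that was not called. Emcn was listed at 0 and Cdh5 lay at 0.24 or less. Of 8 primitive endoderm markers 1 to 3 reached 1 (sums 3.91 to 6.51). The fibroblast marker Pdgfrb was at 0.949, 3.35, 2.80 and 3.63 in the order WT, SO, Ldha_KO, Ldhb_KO and was called higher in SO and Ldhb_KO. The part of these markers in the differences below was not tested, and in bulk RNA more cells of a type and more RNA per cell cannot be told apart. For genes above 0 and under 0.2 in both of 2 libraries, the ratio of their values was taken, and only ratios near 1 were kept. These ratios stand for what 1 fragment is worth. The span of the kept ratios, without the extreme genes at either end, was 0.0233% for WT with SO and 0.261% for Ldha_KO with Ldhb_KO. Across these pairs the span was larger, at 0.586% to 0.957%. The median ratio, which this choice holds near 1, did not follow this split, at 0.956 and 0.946 within the pairs and 0.950 to 1.05 across them. Knockout and the split in span cannot be told apart in the comparisons of a knockout with WT.

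**Figure D1:**
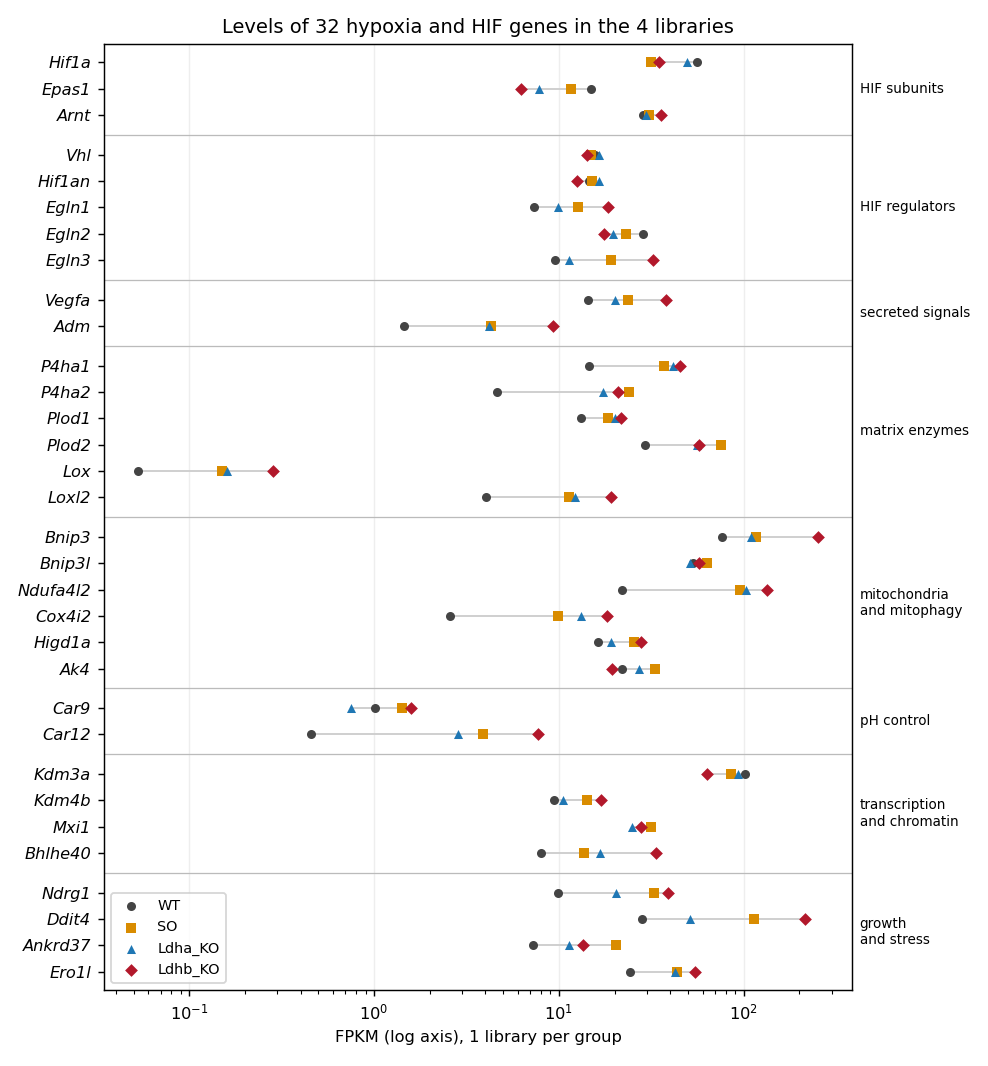
Levels of the 32 genes (FPKM, logarithmic axis) in WT, SO, Ldha_KO and Ldhb_KO, 1 library each, grouped by role, with a grey line from the lowest to the highest library. Ldhb_KO was the highest library for 19 of the 31 kept genes, and Lox stayed below 0.3 in all 4 libraries.

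More hypoxia genes were called higher than lower in each perturbed library, and Ldhb_KO had the most calls. In SO 11 of 31 kept genes were called higher (35.5%) and 0 lower, against 2.69% and 0.472% of all genes kept. In Ldha_KO 7 were higher (22.6%) and 0 lower, against 2.65% and 1.06%. In Ldhb_KO 15 were higher (48.4%) and 1, Epas1, was lower, against 3.36% and 1.09%. The median difference of the 31 genes was 0.67 in SO, 0.44 in Ldha_KO and 0.94 in Ldhb_KO, beside -0.04, -0.03 and -0.02 over all genes kept. Car12 passed the filter only through the libraries where it was high, and without it the counts were 10, 6 and 14 of 30 with medians of 0.64, 0.42 and 0.88. Shares of all genes at 1 or more in WT are not given, here or for the further targets below. Higher hypoxia genes in these libraries were already known when the list was taken up, so these counts are a description and no independent support.

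**Figure D2:**
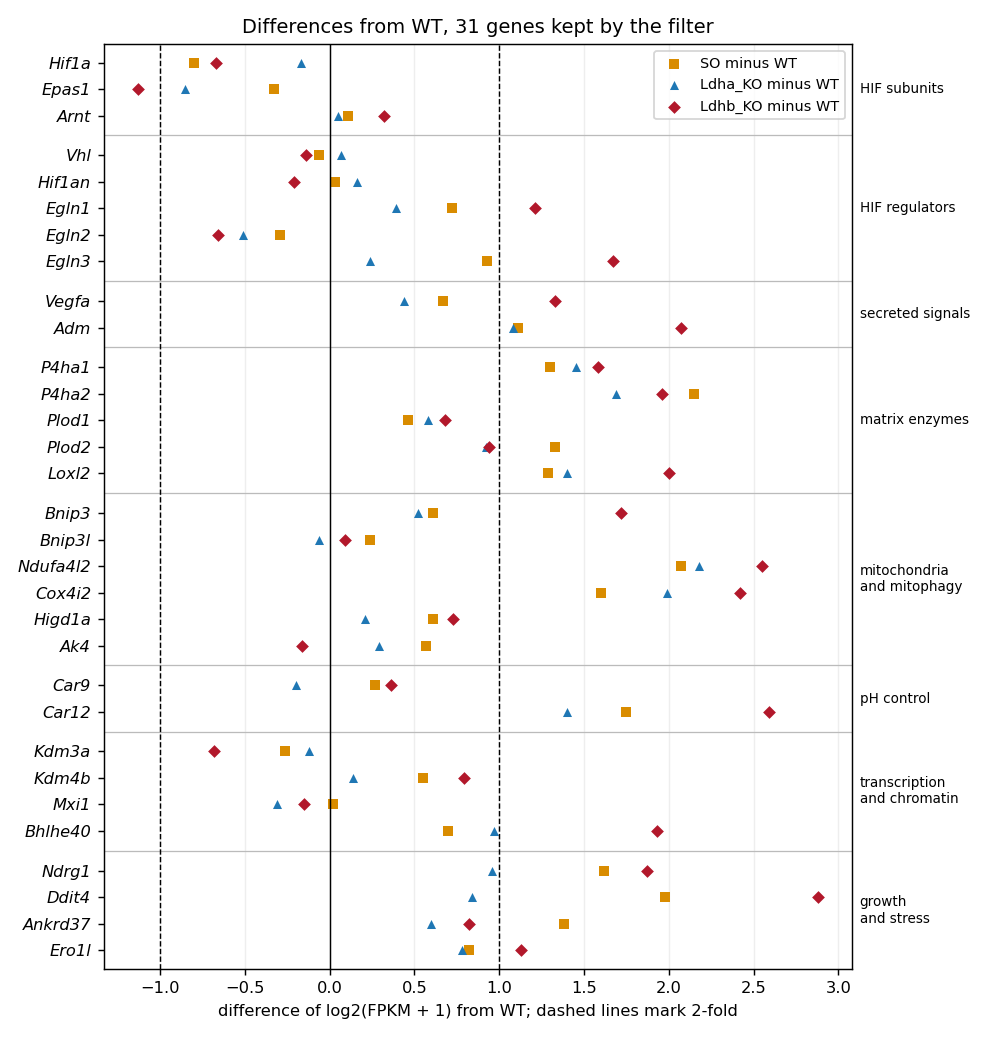
Difference of log2(FPKM + 1) from WT for the 31 kept genes, by role, for SO, Ldha_KO and Ldhb_KO, with dashed lines at a 2-fold difference either way. Ddit4 in Ldhb_KO lies farthest right at 2.88 and Epas1 in Ldhb_KO farthest left at -1.13.

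Of the 3 HIF subunits, 0 were called higher in SO, Ldha_KO or Ldhb_KO, beside 2.69%, 2.65% and 3.36% of all genes kept. With 3 genes, 0 calls lie near those shares. Hif1a, the main oxygen-labile alpha subunit, had levels of 55.8 (WT), 31.6 (SO), 49.3 (Ldha_KO) and 34.7 (Ldhb_KO). WT was thus the highest library, and SO and Ldhb_KO had differences of -0.80 and -0.67 that missed the 2-fold rule. Epas1, which encodes the second alpha subunit HIF-2alpha, was at 15.0, 11.7, 7.84 and 6.27 in the same order of libraries, which is kept below. It was lowest in Ldhb_KO, with a difference of -1.13 that was called lower, and its difference in Ldha_KO was -0.85. Arnt, the stable partner, was at 28.4, 30.8, 29.4 and 35.7, which spans 1.26-fold between the lowest and the highest library.

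The regulators split by kind. Vhl, which recognises hydroxylated HIF for ubiquitination, was at 15.7, 15.0, 16.5 and 14.1, and Hif1an, an asparagine hydroxylase that blocks HIF's coactivator binding, was at 14.6, 15.0, 16.4 and 12.5. Both spanned at most 1.32-fold between libraries. Of the prolyl hydroxylases that are HIF targets, Egln3 was at 9.49, 19.0, 11.4 and 32.5, and Egln1, the main hydroxylase of HIF in most cells, was at 7.35, 12.8, 9.94 and 18.3. Both were called higher in Ldhb_KO alone, with differences of 1.67 and 1.21, and Egln3 just missed the rule in SO at 0.93. Egln2, which is not known as a hypoxia-induced gene, was at 28.5, 23.0, 19.7 and 17.6, highest in WT and lowest in Ldhb_KO with a difference of -0.66.

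Both secreted signals were highest in Ldhb_KO. Adm, the precursor of the vasodilating peptide adrenomedullin, had levels of 1.44 (WT), 4.27 (SO), 4.17 (Ldha_KO) and 9.25 (Ldhb_KO). It was called higher in all 3 perturbed libraries, with differences of 1.11, 1.08 and 2.07. Its WT value rests on roughly 24 fragments and the others on 75, 70 and 163, estimated from a transcript of 1390 bases. Vegfa, the growth factor of blood vessels, was at 14.4, 23.6, 20.0 and 37.8 and passed the rule in Ldhb_KO at 1.33.

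Of the 5 kept enzymes that modify and cross-link collagen, 4 were called higher in SO and 3 in each knockout. The shares of all genes kept were 2.69% (SO), 2.65% (Ldha_KO) and 3.36% (Ldhb_KO). P4ha2, a catalytic subunit of collagen prolyl 4-hydroxylase, had levels of 4.63 (WT), 24.0 (SO), 17.2 (Ldha_KO) and 20.9 (Ldhb_KO). P4ha1, its paralogue, was at 14.5, 37.2, 41.5 and 45.4, and Loxl2, a lysyl oxidase relative that cross-links collagen, was at 4.05, 11.3, 12.3 and 19.2. All 3 genes were called higher in each perturbed library, P4ha2 with differences of 2.15, 1.69 and 1.96, P4ha1 with 1.30, 1.45 and 1.58, and Loxl2 with 1.29, 1.40 and 2.00. Plod2, a lysyl hydroxylase of collagen telopeptides, was at 29.1, 74.9, 55.9 and 57.0, with differences of 1.33 in SO and of 0.92 and 0.94 in the knockouts, just below the rule. The other lysyl hydroxylase, Plod1, was at 13.2, 18.5, 20.2 and 21.7 and was not called. Lox, the founding lysyl oxidase, lay under the filter at 0.0527, 0.151, 0.160 and 0.284, or roughly 3, 9, 9 and 17 fragments. Its order matched that of Loxl2, with WT lowest and Ldhb_KO highest, at a level where few fragments decide the value.

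Mitochondrial targets divided into genes with large differences and genes with small ones. Ndufa4l2, a hypoxia-linked relative of the respiratory chain subunit Ndufa4, had levels of 22.0 (WT), 95.2 (SO), 103 (Ldha_KO) and 134 (Ldhb_KO). Cox4i2, the hypoxia-linked isoform of cytochrome c oxidase subunit 4, was at 2.57, 9.84, 13.2 and 18.2, or roughly 23, 91, 116 and 169 fragments. Both were called higher in all 3 libraries, Ndufa4l2 with differences of 2.07, 2.18 and 2.55 and Cox4i2 with 1.60, 1.99 and 2.42. Bnip3, a mitophagy receptor of the outer membrane, was at 75.9, 116, 110 and 252, and was called higher in Ldhb_KO alone, at 1.72. Its relative Bnip3l was at 53.3, 63.3, 50.9 and 56.9, a span of 1.24-fold. Higd1a, a small inner-membrane protein, was at 16.3, 25.4, 19.0 and 27.8, and Ak4, a mitochondrial adenylate kinase, was at 21.9, 33.0, 27.0 and 19.5. Neither was called, and Ak4 was highest in SO and lowest in Ldhb_KO, unlike most of the list.

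Among the carbonic anhydrases of the cell surface, which help to control pH, the calls were those of Car12. Car12 had levels of 0.454 (WT), 3.88 (SO), 2.85 (Ldha_KO) and 7.75 (Ldhb_KO), or roughly 20, 182, 127 and 365 fragments. It was called higher in each, at 1.75, 1.40 and 2.59, and its FPKM in Ldhb_KO was 17.0 times that in WT. Car9 was at 1.01, 1.42, 0.747 and 1.58, or roughly 25, 36, 18 and 41 fragments, was lowest in Ldha_KO and was called in no comparison. Car9 sits just inside the filter of 1 and Lox, with a highest value of 0.284, outside it.

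Of the transcriptional and chromatin regulators, 1 of 4 was called, in Ldhb_KO alone, where 3.36% of all genes kept were called higher. Bhlhe40, a transcriptional repressor, had levels of 8.01 (WT), 13.6 (SO), 16.6 (Ldha_KO) and 33.4 (Ldhb_KO). It was called in Ldhb_KO at 1.93 and missed the rule in Ldha_KO at 0.97. The histone lysine demethylase Kdm4b was at 9.41, 14.2, 10.5 and 17.0, without a call. Kdm3a, another histone demethylase and a known HIF target, was at 102, 84.8, 93.5 and 63.4, with a difference of -0.68 in Ldhb_KO. Its difference of -0.12 in Ldha_KO became 0.02 with each library rescaled to the summed value of WT. Mxi1, a Max partner that opposes Myc, was at 30.9, 31.3, 24.7 and 27.8.

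Of the 4 targets linked to growth and stress, 3 were called higher in SO, 0 in Ldha_KO and 3 in Ldhb_KO. The shares of all genes kept were 2.69%, 2.65% and 3.36%. Ddit4, an inhibitor of mTORC1, had levels of 28.1 (WT), 114 (SO), 50.9 (Ldha_KO) and 213 (Ldhb_KO). Its difference was 2.88 in Ldhb_KO, 1.98 in SO and 0.84, below the rule, in Ldha_KO. The value in Ldhb_KO was the largest of the list with a pseudocount of 1, while with 0.1 Car12 was larger, at 3.82 beside 2.92. Ndrg1, a stress-responsive gene, was at 9.93, 32.6, 20.2 and 39.0, with differences of 1.62, 0.96 and 1.87. Ankrd37, an ankyrin-repeat gene induced by HIF, was at 7.20, 20.3, 11.4 and 13.5 and was highest in SO, where alone it was called at 1.38. Ero1l, the oxidase that forms disulfide bonds in the endoplasmic reticulum, was at 24.3, 43.7, 42.4 and 54.4 and was called in Ldhb_KO at 1.13. Ddit4 and Ndrg1 also respond to stresses other than hypoxia.

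**Figure D3:**
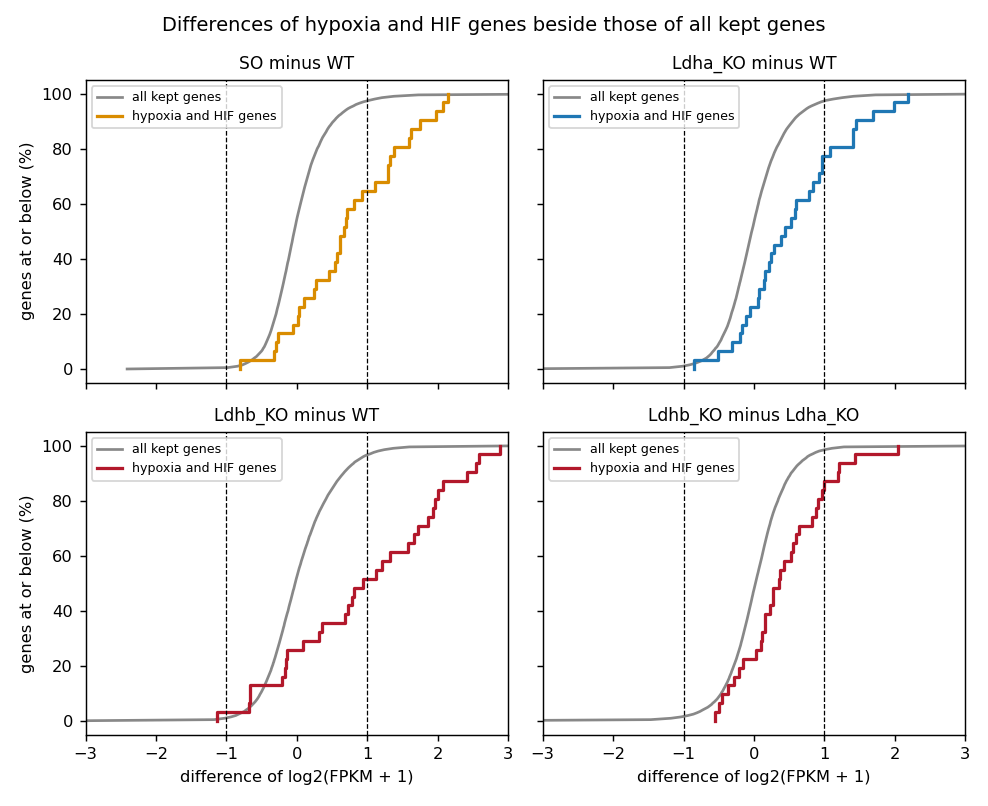
Share of genes (%) at or below each difference of log2(FPKM + 1), for the 31 kept hypoxia genes (coloured steps) and all 13142 kept genes (grey), in the 4 comparisons, with dashed lines at 2-fold. The axis is limited to -3 to 3, so the outermost of all genes are not drawn. The medians of the hypoxia genes, 0.67, 0.44, 0.94 and 0.35, lie to the right of those of all genes in each panel, while Epas1, Kdm3a, Hif1a and Egln2 form a lower tail in Ldhb_KO against WT.

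The library with the highest level was counted for each gene. Of the 31 kept genes, 19 were highest in Ldhb_KO (61.3%), 6 in SO (19.4%), 4 in WT (12.9%) and 2 in Ldha_KO (6.45%). Over all genes kept the shares were 28.3%, 20.4%, 31.2% and 20.1%. The genes highest in WT were Hif1a, Epas1, Egln2 and Kdm3a, and those highest in Ldha_KO were Vhl and Hif1an. With each library rescaled to the summed value of WT, 3 genes were highest in WT and 3 in Ldha_KO. As deposited, those highest in SO were Ak4, Ankrd37, Bnip3l, Mxi1, P4ha2 and Plod2.

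The knockouts were also compared with each other, which does not involve WT. Here 4 of 31 genes were called higher in Ldhb_KO than in Ldha_KO (12.9%) and 0 lower, against 1.54% and 1.67% of all genes kept, and the median difference was 0.35 beside 0.02. With a pseudocount of 0.1, 6 were higher and 0 lower, against 574 higher and 419 lower of all genes kept. With the pseudocount of 1 the genes were Ddit4 with a difference of 2.04, Egln3 with 1.43, Bnip3 with 1.20 and Car12 with 1.19. Adm lay just under the rule at 0.99 and Bhlhe40 at 0.97. The collagen enzymes differed little between the knockouts, with 0.12 for P4ha1, 0.27 for P4ha2 and 0.03 for Plod2, except for Loxl2 at 0.60. The lowest differences were those of Kdm3a at -0.55, Hif1a at -0.50 and Ak4 at -0.45.

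Ratios of related genes within a library do not move with that library's scaling. Cox4i2 stood at 0.00399 of its constitutive partner Cox4i1 in WT and at 0.0132 in SO, 0.0211 in Ldha_KO and 0.0279 in Ldhb_KO. Cox4i1 itself was at 645, 746, 627 and 650, which spans less than Cox4i2. Ndufa4l2 stood at 0.0325 of Ndufa4 in WT and at 0.126, 0.140 and 0.215, with Ndufa4 at 676, 754, 736 and 622. Both hypoxia-linked isoforms remained the minor form in every library. Egln3 was at 0.333 of Egln2 (WT), 0.826 (SO), 0.579 (Ldha_KO) and 1.84 (Ldhb_KO), so that it exceeded Egln2 in Ldhb_KO alone. Egln1 to Egln2 was 0.258, 0.554, 0.505 and 1.04. P4ha2 to P4ha1 was highest in SO, at 0.643 beside 0.319 in WT, and Bnip3l to Bnip3 was 0.702 in WT and 0.226 in Ldhb_KO. Epas1 to Hif1a was 0.268, 0.369, 0.159 and 0.181.

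**Figure D4:**
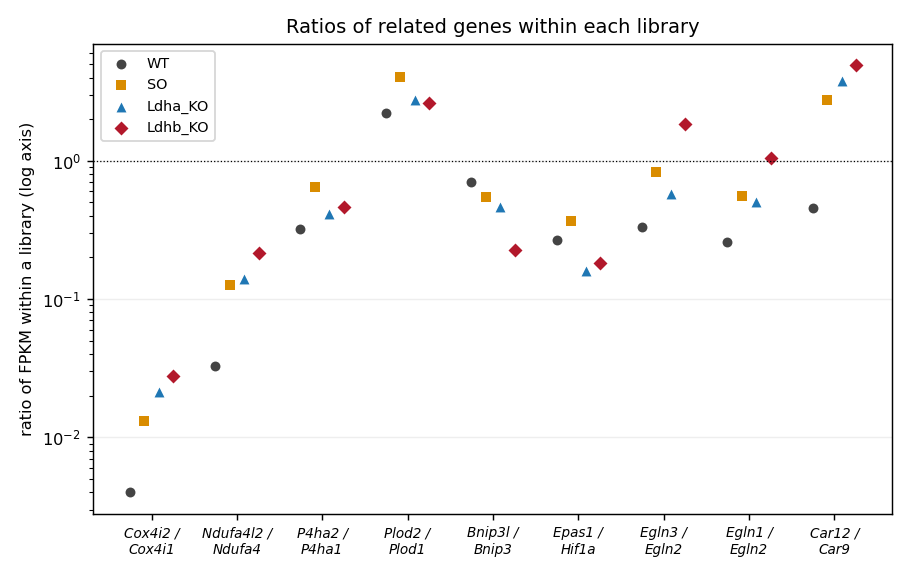
Ratio of the FPKM of a gene to that of a related gene within each library (logarithmic axis), for 9 pairs and 4 libraries, with a dotted line at 1. Cox4i2 to Cox4i1 and Ndufa4l2 to Ndufa4 are lowest in WT, at 0.00399 and 0.0325, and highest in Ldhb_KO, at 0.0279 and 0.215.

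Other genes of the pathway were taken from lists of glycolytic targets, HIF partners and further targets. Of 20 glycolytic targets, 0 were called lower, and those called higher were 1 in SO, 1 in Ldha_KO and 3 in Ldhb_KO, beside 2.69%, 2.65% and 3.36% of all genes kept. With 20 genes, 1 call lies near that share. The medians were 0.20, 0.17 and 0.45. The genes called in Ldhb_KO were Slc2a1, Slc2a3 and Aldoc. The glucose transporter Slc2a1 was at 307, 502, 393 and 690. Slc2a3, another glucose transporter, was at 303, 544, 646 and 663, and Aldoc, an aldolase, was at 6.41, 15.1, 9.40 and 23.3. Hk2, a hexokinase, was at 48.7, 41.4, 30.3 and 70.3. Between the knockouts 2 of the 20 were called higher in Ldhb_KO, Aldoc at 1.22 and Hk2 at 1.19, and 0 lower. The shares of all genes kept were 1.54% and 1.67%. These glycolytic medians were smaller than those of the 31 kept genes of the list, which also holds HIF subunits and regulators. The 22 further targets kept, also outside glycolysis, had medians of 0.40, 0.16 and 0.27. Those were larger than the glycolytic medians in SO alone. These differences were not tested.

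Of 13 further partners and degraders of HIF, 0 were called against WT. Of all genes kept, 2.69%, 2.65% and 3.36% were called higher in SO, Ldha_KO and Ldhb_KO, and 0.472%, 1.06% and 1.09% lower. With 13 genes, 0 calls lie near those shares. Between the knockouts Cited2, which competes with HIF for the coactivators Ep300 and Crebbp and is itself a HIF target, was lower in Ldhb_KO, with levels of 44.2, 46.1, 73.5 and 24.1. Of 24 further targets, 22 were kept, with 3 higher in SO, 2 in Ldha_KO and 3 in Ldhb_KO, 0 lower in each and medians of 0.40, 0.16 and 0.27, beside the same shares of all genes kept. Without the genes under 1 in WT, which include Ppp1r3c and Stc1, the counts were 2, 2 and 1 of 19 with medians of 0.30, 0.19 and 0.21. Fam162a, a mitochondrial HIF target, was at 80.8, 167, 129 and 190, and Ppp1r3c, a glycogen-targeting subunit, was at 0.614, 2.67, 1.05 and 2.54. Both were called in SO and Ldhb_KO. Stc1, a secreted glycoprotein, was at 0.617, 1.81, 0.555 and 3.82. Edn1, which encodes endothelin, was at 1.54, 2.76, 5.44 and 0.977, highest in Ldha_KO and lowest in Ldhb_KO. In Ldhb_KO against Ldha_KO, 2 of the 22 were called higher, Pdgfb and Stc1, and 1 lower, Edn1. The shares of all genes kept were 1.54% and 1.67%. Angptl4, another secreted target, had differences of -0.29, -0.12 and -0.75 that were not called, and the one in Ldha_KO became 0.01 with each library rescaled to the summed value of WT.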

How the data were processed

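The deposited tables give 1 value per gene symbol for each of the 4 libraries. They were read as FPKM made by the authors, because they are not whole numbers, their totals differ between libraries and low values step by a gene-specific amount. RPKM cannot be told apart from FPKM here. Tools named, per the submitters' processing notes, were edgeR 3.26.8, HTSeq 0.11.2, SAMtools 1.9 and Bowtie2 2.3.4.3, and the build was mm9. What each tool did, the annotation and the read depth were not given in the sources used here.

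Genes with at least 1 in at least 1 library were kept, and differences of log2(FPKM + 1) were computed (pseudocount 1) with Python 3.11.15 and pandas 2.3.3. The pseudocount makes these differences smaller for weakly expressed genes. No test was possible with 1 library per group. A difference of 1 (2-fold in FPKM + 1) was called, and the calculation of the calls was tested on simulated data. Every kept gene of the list was named with its values. The 32 genes, the other lists and the rules were chosen with earlier results of these data known. Alternatives were a pseudocount of 0.1, no filter, a filter of 5, rescaling of each library to WT's summed value or to a median difference of 0, and, chosen after seeing the data, leaving out genes under 1 in WT, also among the further targets.

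Rough fragment numbers came from genes with 1 annotated transcript in GENCODE M21, for which 1 fragment on 1 kb was worth 0.0829 in WT (159 genes between 0.06 and 0.1), and from each gene's longest coding transcript there. The annotation is not the authors', so no counting interval was computed.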

Additional observations from a re-analysis of the deposited data

How the results depend on the processing

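Under the 5 alternatives fixed in the design, 0 of the called differences of single genes lost their call or changed direction. Most of this was set in advance. A filter does not alter a gene's own difference, and a pseudocount of 0.1 enlarges it. Both rescalings multiplied each perturbed library by more than 1, so a higher call against WT could not be lost. Only the lower call of Epas1 and the calls between the knockouts could be lost, and only by rescaling. Of the differences not called, 3 turned sign on rescaling to the summed value of WT, namely Vhl in SO from -0.06 to 0.09, and Bnip3l and Kdm3a in Ldha_KO from -0.06 to 0.07 and from -0.12 to 0.02. The genes highest in WT then fell from 4 to 3, and those highest in Ldha_KO rose from 2 to 3. A pseudocount of 0.1 added 4 calls of 124, namely Bhlhe40 and Ndrg1 in Ldha_KO against WT and Adm and Bhlhe40 in Ldhb_KO against Ldha_KO. Rescaling to the summed value of WT added 5, namely Egln3 in SO, Plod2, Bhlhe40 and Ndrg1 in Ldha_KO and Plod2 in Ldhb_KO, and rescaling to a median difference of 0 added Bhlhe40 in Ldha_KO. The counts of genes called higher against WT ranged from 11 to 12 in SO, from 7 to 10 in Ldha_KO and from 15 to 16 in Ldhb_KO, and Epas1 stayed the 1 gene called lower. Rescaling to the summed value moved the median of all genes by 0.139, 0.124 and 0.107, and the medians of the hypoxia genes were then 0.82, 0.58 and 1.06. Over all genes it raised the share of calls that were higher from 71.5% to 83.3% in Ldha_KO and from 75.5% to 86.4% in Ldhb_KO. The same rescaling raised the number of all genes called higher from 353 to 487 in SO. In Ldha_KO that number rose from 348 to 489 and in Ldhb_KO from 441 to 629. A pseudocount of 0.1 raised the number of all genes called higher from 353 to 808 in SO, from 348 to 868 in Ldha_KO and from 441 to 1141 in Ldhb_KO, and of those called lower from 62 to 182, from 139 to 321 and from 143 to 311. Between the knockouts it turned the balance of all genes from 202 higher and 219 lower to 574 higher and 419 lower. A filter of 5 lowered the number of all genes called higher to 234, 232 and 262. Leaving out genes under 1 in WT lowered the calls among the further targets from 3 to 2 in SO and from 3 to 1 in Ldhb_KO. With 1 library per group, no alternative replaces a replicate.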
